A study of Homo sapiens with 2 samples.

Results

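The desmosome components described here were 10 genes for the adhesion molecules and the cytoplasmic plaque of the desmosome, namely the desmogleins DSG2 and DSG3, the desmocollins DSC2 and DSC3, plakoglobin (JUP), the plakophilins PKP1, PKP2 and PKP3, desmoplakin (DSP) and PERP. They were chosen by name, and each was read from the array row annotated with that symbol alone. All 10 had exactly 1 such row, out of 22465 genes with a single-symbol row, and no member occurred in a row shared by several symbols. The cells were KYSE150, a widely used cell line grown from a human squamous carcinoma of the esophagus, stably infected with a lentivirus. The control cells carried a scrambled short hairpin RNA (shscramble) and the knockdown cells a hairpin against the long non-coding RNA lncRNA625, and both were grown in RPMI-1640 with fetal bovine serum and without any further treatment in the labels. One sample label names siRNA interference, whereas the design text and the methods describe stable hairpins. Cell clones were screened for knockdown according to the methods, and the sources used here do not say whether the arrayed RNA came from 1 clone.

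Total RNA of each group was hybridized to 1 Human Transcriptome Array 2.0, so the comparison of knockdown with control rested on 2 arrays. There were no replicates, no error and no test for any value below, and a difference between the arrays includes whatever separates 2 single cultures. Values are on the log2 scale deposited after RMA, and differences are knockdown minus control. The signal of lncRNA625 itself was not analysed here, so the knockdown was not checked on these arrays. In RNA of whole cultures, less RNA per cell cannot be told apart from fewer cells that make it.

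Desmosomes are spot-like junctions that tie the keratin filaments of neighboring epithelial cells to each other. Desmogleins and desmocollins are calcium-dependent cadherins that bridge the gap between the cells. Their tails bind the armadillo proteins plakoglobin and plakophilins, which bind desmoplakin, and desmoplakin anchors the keratin filaments. In stratified squamous epithelia such as the esophagus these junctions carry mechanical load, and the mix of cadherins and plakophilins changes between the basal and the upper layers.

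All 10 members were detected above background on both arrays. The 23 background probe rows had a median of 3.34 and reached 6.003, and the dimmest member, PKP3, was at 6.38 on the control array. A gene was taken as measured where its mean signal was at or above 4.97, the median of all rows with 1 symbol, and 11323 genes including the 10 members met this signal limit. Signals of different rows come from different probes and are therefore not compared as amounts of RNA.

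**Figure D1:**
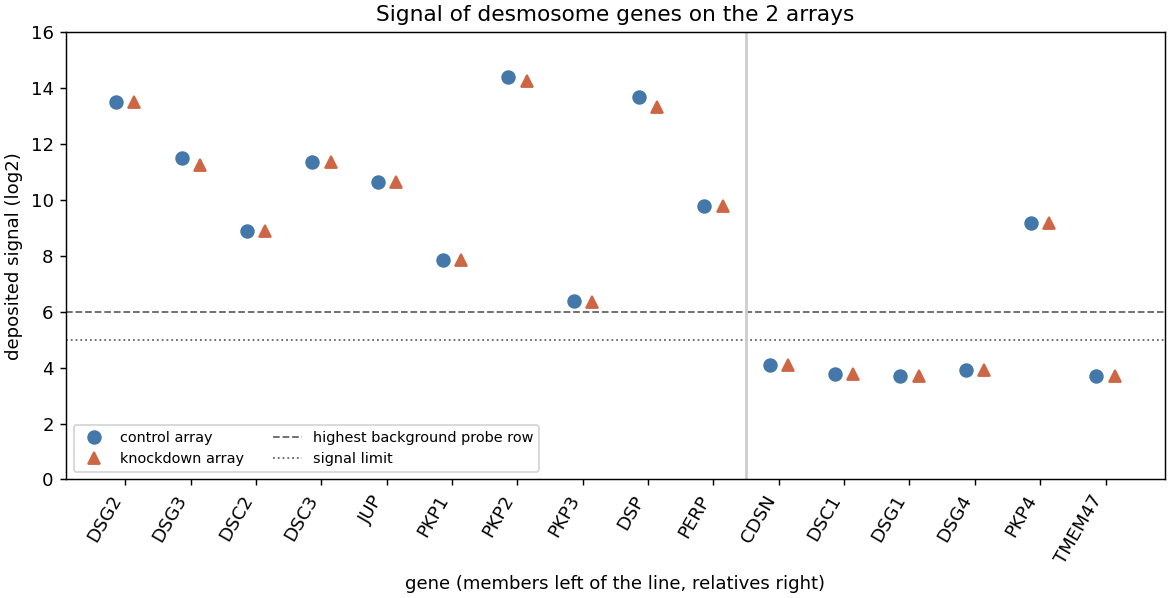
Deposited log2 signal (vertical axis) of the 10 desmosome members and of 6 relatives (horizontal axis) on the control array (circles) and the knockdown array (triangles), with the highest background probe row at 6.003 (dashed) and the signal limit of 4.97 (dotted). All members lie above both lines, whereas 5 of the 6 relatives lie below both and only PKP4 lies above.

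DSP, DSG3 and PKP2 were lower on the knockdown array, PKP3 was lower by a very small amount, and the other 6 members had identical values on both arrays. DSP, the plaque protein that holds the keratin filaments, was lower by 0.36 on the log2 scale, which left 78.2% of the control signal. DSG3, the desmoglein of the basal and suprabasal layers, stood at 83% of control and PKP2, the plakophilin found in simple epithelia and heart as well as in basal cells, at 90.2%. No member was higher on the knockdown array.

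Among the desmosomal cadherins, only DSG3 differed. Its signal went from 11.51 in the control to 11.25 in the knockdown, a difference of -0.27. DSG2, the desmoglein of wide distribution in epithelia, was at 13.52 on both arrays. Of the desmocollins, which pair with desmogleins across the junction, DSC2 was at 8.88 and DSC3 at 11.34 on both arrays. DSG3 was thus lower by 0.27 relative to DSG2, which is its own difference because DSG2 had identical values. The partner desmocollins had identical values too, which does not show that they were unaffected.

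The armadillo proteins were split. JUP, which binds the cadherin tails and also occurs at adherens junctions, was at 10.65 on both arrays, and PKP1, the plakophilin of suprabasal keratinocytes, was at 7.86 on both. PKP2 stood at 14.41 in the control and at 14.26 in the knockdown, a difference of -0.15 that came to -0.083 after a second quantile normalization. For PKP3, a plakophilin that binds nearly all desmosomal cadherins, the signals were 6.38 and 6.34, a difference of -0.034 just above the range of the background probes, or -0.052 after a second quantile normalization. The PKP3 signal exceeded the highest background row by only 0.37 on the control array, so its small difference is uncertain.

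DSP had the strongest difference of the members, its signal being 13.69 in the control and 13.33 in the knockdown. PERP, a small tetraspan membrane protein of desmosomes in stratified epithelia and a target of p53 family factors, was at 9.80 on both arrays. RefSeq lists the pseudogenes PKP2P1, PERPP2 and PERPP3 as relatives of 2 members, and probes shared with them were not analysed here.

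**Figure D2:**
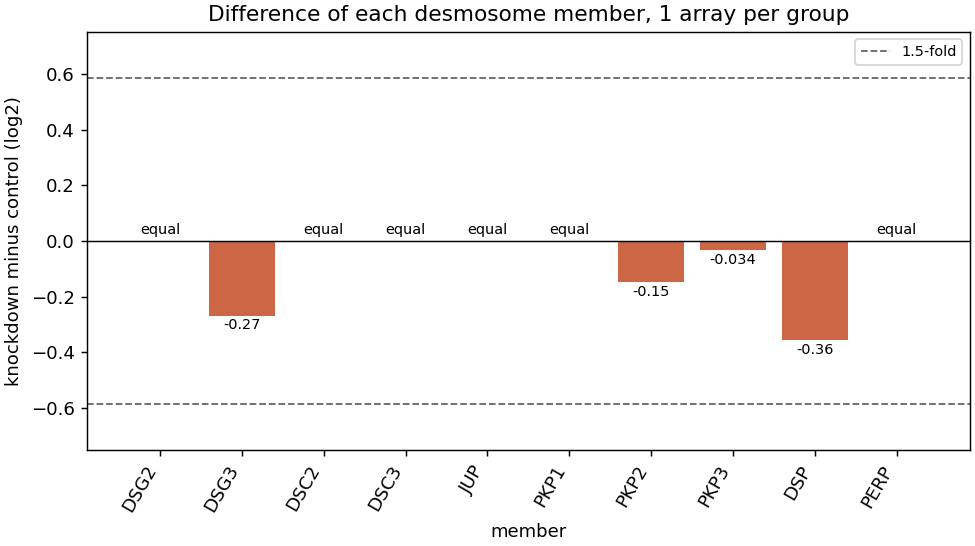
Difference of the deposited log2 signal, knockdown minus control (vertical axis), for each of the 10 members (horizontal axis), ordered as cadherins, armadillo proteins, DSP and PERP, with 1.5-fold marked by dashed lines. Bars are single differences without error; DSP (-0.36) and DSG3 (-0.27) reach farthest, and 6 members are equal.

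At the study's limit of 1.5-fold, which is 0.58 on the log2 scale, 0 of 10 members were lower and 0 were higher, against 0.477% and 1.11% of the 11323 measured genes. Counting differences of any size, 4 members were lower and 0 higher, where 12.1% of the measured genes were lower and 11.8% higher. The median difference of the members was 0, as was the median of the measured genes, and the means were -0.081 and 0.0053. Identical values are common in this table. They were found in 6 of 10 members and in 76% of the measured genes, so a difference of 0 does not measure that a gene was unaffected. Counts of lower genes rest on these identical values, which another scaling moves off 0, and after centring each array on its median 10 of 10 members were lower, 6 of them with a difference of -0.011. The median of all measured genes was then -0.011 too.

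Genes with strong signal differed more often, and 6 members belong to them. Of the 2244 genes with a mean signal of at least 10, 27% were lower and 19% higher. Among the 6 members in this range, DSP, DSG3 and PKP2 were lower, DSG2, DSC3 and JUP were equal and 0 were higher. PERP, with identical values on both arrays at 9.80, lies just under this limit. At mean signals from 13 upward, where DSP, DSG2 and PKP2 lie, 30.1% of 379 genes were lower, 28.8% higher and 41.2% equal. From 11 to 13, where DSG3 and DSC3 lie, 28.8% of 1011 genes were lower and 20.1% higher. The limit of 10 was chosen after the values had been seen.

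In size, the differences of DSP and DSG3 were above the middle of all those observed. Of the 11323 measured genes, 174 had a lower difference than DSP, or 1.54%, and 291 had a lower one than DSG3, or 2.57%. For PKP2 the share was 5.15% and for PKP3 9.88%. These shares cover genes of all signal levels, whereas genes with strong signal differed more often. The 2713 genes that differed at all had a median size of 0.12, which DSP, DSG3 and PKP2 exceeded and PKP3 did not.

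**Figure D3:**
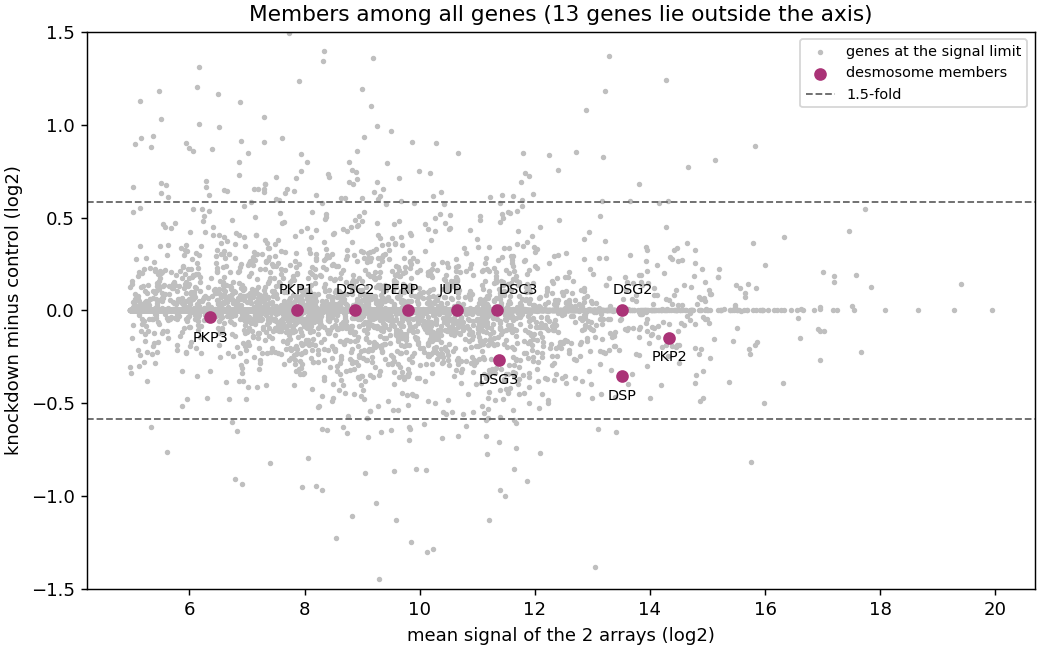
Difference, knockdown minus control on the log2 scale (vertical axis), against the mean signal of both arrays on the log2 scale (horizontal axis) for the 11323 measured genes (grey) and the 10 members (colored), with 1.5-fold as dashed lines; 13 genes lie outside the vertical range. All members lie within the 1.5-fold lines, 6 of them on the line of equal values, and DSP, DSG3 and PKP2 lie below it at strong signal.

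The promoter sequences of DSP, DSG3 and DSG2 are shown because the first 2 had the strongest differences among the members, and DSG2 is the neighbor of DSG3 on chromosome 18 and was equal on both arrays. Each is the 250 bases before the annotated start in the RefSeq annotation of GRCh38.p14, on the plus strand, and 8 of the 10 members had a window there, while PKP2 and PKP3 had none. DSP lies at chr6:7541421-7541670, DSG3 at chr18:31447491-31447740 and DSG2 at chr18:31497927-31498176. Capitals mark matches, on either strand, to the TATA box with the letters TATAAA, the CCAAT box, the GC box GGGCGG, the AP-1 site TGANTCA, the E-box CACCTG of SNAI and ZEB factors and the Grainyhead motif AACNGGTT.
DSP: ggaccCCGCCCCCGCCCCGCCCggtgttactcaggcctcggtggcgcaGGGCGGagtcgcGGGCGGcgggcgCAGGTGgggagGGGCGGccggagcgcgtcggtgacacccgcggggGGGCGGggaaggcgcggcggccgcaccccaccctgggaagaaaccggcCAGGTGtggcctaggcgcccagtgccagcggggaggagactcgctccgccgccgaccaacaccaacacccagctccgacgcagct
DSG3: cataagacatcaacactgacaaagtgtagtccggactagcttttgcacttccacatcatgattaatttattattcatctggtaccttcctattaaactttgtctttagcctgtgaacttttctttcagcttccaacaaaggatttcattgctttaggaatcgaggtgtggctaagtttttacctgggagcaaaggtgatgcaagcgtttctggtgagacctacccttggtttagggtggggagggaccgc
DSG2: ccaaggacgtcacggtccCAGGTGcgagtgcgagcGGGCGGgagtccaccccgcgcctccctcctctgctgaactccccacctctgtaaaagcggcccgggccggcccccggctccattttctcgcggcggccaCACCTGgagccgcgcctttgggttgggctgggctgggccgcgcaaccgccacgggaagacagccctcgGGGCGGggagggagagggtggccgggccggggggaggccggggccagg

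G and C made up 78% of the DSP window, 75.2% of the DSG2 window and 42.8% of the DSG3 window, and the median over 35116 windows of this length was 58%. The DSP window held 7 GC boxes, of which 2 overlapped by 1 base, and 2 E-boxes, and the DSG2 window held 2 of each. None of the 6 motifs was found in the DSG3 window. GC boxes occurred in 42.6% and these E-boxes in 17.5% of all windows, CCAAT in 32%, TATAAA in 10.7%, TGANTCA in 6.57% and AACNGGTT in 1.49%. A TGANTCA match was found in 1 of the 8 members with a window, PERP. These letters describe the windows and say nothing of what binds there.

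The 4 cadherin members lie in one cluster on chromosome 18 with 3 further desmosomal cadherin genes, in the order DSC3, DSC2, DSC1, DSG1, DSG4, DSG3, DSG2 in the RefSeq annotation of GRCh38.p14. The 3 others were within the range of the background probes and equal on both arrays, DSC1 at 3.77, DSG1 at 3.71 and DSG4 at 3.90. DSC1 and DSG1 belong to the upper layers of the epidermis and DSG4 to hair and cornifying cells. Around the cluster, 4 genes with a row of their own, CDH2, DSG2-AS1, TTR and B4GALT6, were equal as well, and of these only B4GALT6, at 6.92, was above the highest background row. These 4 were picked after the member values had been seen. DSG3 was the single gene of the 11 with a difference, but only 5 of the 11 were above the highest background row. Among all measured genes, 76% were equal. That share does not cover DSC1, DSG1, DSG4, CDH2, DSG2-AS1 and TTR, which lie below the signal limit. At mean signals from 4.97 to 7 the equal share was 88.5%.

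Of the further relatives, PKP4, an armadillo protein found at several junctions, was at 9.17 on both arrays. CDSN, corneodesmosin of cornified desmosomes, and TMEM47, a junctional tetraspan protein, were within the background range at 4.08 and 3.71.

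The other plakins, which like DSP connect membranes with the cytoskeleton, were mostly equal on both arrays. All 6 reached the signal limit, 1 was higher, 5 were equal and 0 lower, or 83.3% equal against 76% of all measured genes. PPL (periplakin), a binding partner at desmosomes, was at 8.64 in the control and 8.79 in the knockdown, higher by 0.15. PLEC, DST and MACF1 were equal at 8.10, 9.92 and 9.59, and EVPL and EPPK1 were equal within the range of the background probes. The difference of PPL exceeded that of DSP by 0.51 on the log2 scale. This pair sets the 1 plakin that differed against the member with the strongest difference, and the other 5 plakins were equal.

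Adherens junction genes that differed were all higher, whereas the desmosome members that differed were all lower. With 1 array per group the contrast between the lists was not tested. Of the 10 measured adherens junction genes, 5 were higher, 5 equal and 0 lower, with 0 beyond 1.5-fold, where 11.8% of all measured genes were higher, 12.1% lower and 76% equal. The least of the 5, NECTIN4, differed by 0.077 at a signal of 5.08 in the control, below the highest background row, and the list median of 0.038 rests on this gene. CDH1, the classical E-cadherin of epithelia, was at 13.86 in the control and 14.44 in the knockdown, a difference of 0.58 just short of 1.5-fold that reached 0.62 with another scaling of the arrays. CDH3 (P-cadherin) differed by 0.33, NECTIN2, an immunoglobulin-like adhesion molecule, by 0.28 and VCL (vinculin), a linker to actin, by 0.24. Among the equal genes were CTNNB1 and CTNNA1, the beta and alpha catenins, at 9.40 and 11.04. Relative to DSG3, the difference of CDH1 was greater by 0.85 and that of CDH3 by 0.60. These pairs set the largest differences of this list against 1 of the 4 lower members, and 6 members were equal. After centring each array on its median, 5 of the adherens junction genes were higher and 5 lower. The lower ones were the equal genes, each moved by the same -0.011.

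The keratins, to which desmosomes are anchored, were mixed. Of 9 measured genes of the list, 3 were lower, 1 was higher and 5 were equal, or 55.6% equal against 76% of all measured genes, with a median of 0 in both. These shares are not matched for signal. The lower genes KRT5, KRT8 and KRT18 lie at mean signals from 13 upward, where 41.2% of genes were equal. Of the equal genes, KRT7, KRT13, KRT14 and KRT16 lie under 7, where 88.5% were equal, and KRT6C lies at 7.11. KRT5, the basal keratin of squamous epithelia, was at 16.50 in the control and 16.11 in the knockdown, a difference of -0.39. Its signal exceeds 16, the most that a 16-bit scanner yields on this scale, by a step that the sources do not state. KRT15, another basal keratin, was higher by 0.66, from 6.86 to 7.52, and was the 1 gene of all these lists beyond 1.5-fold as deposited. The simple epithelial keratins KRT8 and KRT18, which have many pseudogenes, differed by -0.069 and -0.033. KRT8 came to -0.028 and KRT18 changed sign, to 0.044, after a second quantile normalization, and KRT8 came to -0.035 as a mean over its rows. KRT14, the pairing partner of KRT5, was equal at 5.63, within the range of the background probes.

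Hemidesmosome genes, which fix the basal cell to its matrix, numbered only 3 with a row of their own. ITGB4 and CD151 were higher by 0.21 and 0.073, and ITGA6, the partner chain of ITGB4, was lower with a difference of -0.089, or -0.053 after a second quantile normalization. None was equal, against 76% of all measured genes. At mean signals from 9 to 11, where CD151 lies, 64.8% of genes were equal. From 11 to 13, where ITGA6 and ITGB4 lie, 51.1% were. None of the 3 passed 1.5-fold.

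Among the 14 measured regulators and proteases that act on desmosomes, 3 were lower, 2 higher and 9 equal, or 64.3% equal against 76% of all measured genes, with a median of 0 in both and none beyond 1.5-fold. PRKCA, the protein kinase C alpha whose activity makes desmosomal adhesion sensitive to calcium, differed by -0.36, from 8.52 to 8.17. KLK5, a kallikrein that cleaves corneodesmosomes in skin, differed by -0.27, from 12.10 to 11.83, while ADAM10, a sheddase of cadherins, was higher by 0.19. SNAI2, a repressor of epithelial junction genes, was lower with a difference of -0.11. GRHL2 and GRHL1, Grainyhead factors of epithelial genes, were equal at 10.05 and 6.16, and so were ADAM17, EGFR and ATP2A2, the calcium pump whose loss disturbs desmosomes in Darier disease.

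**Figure D4:**
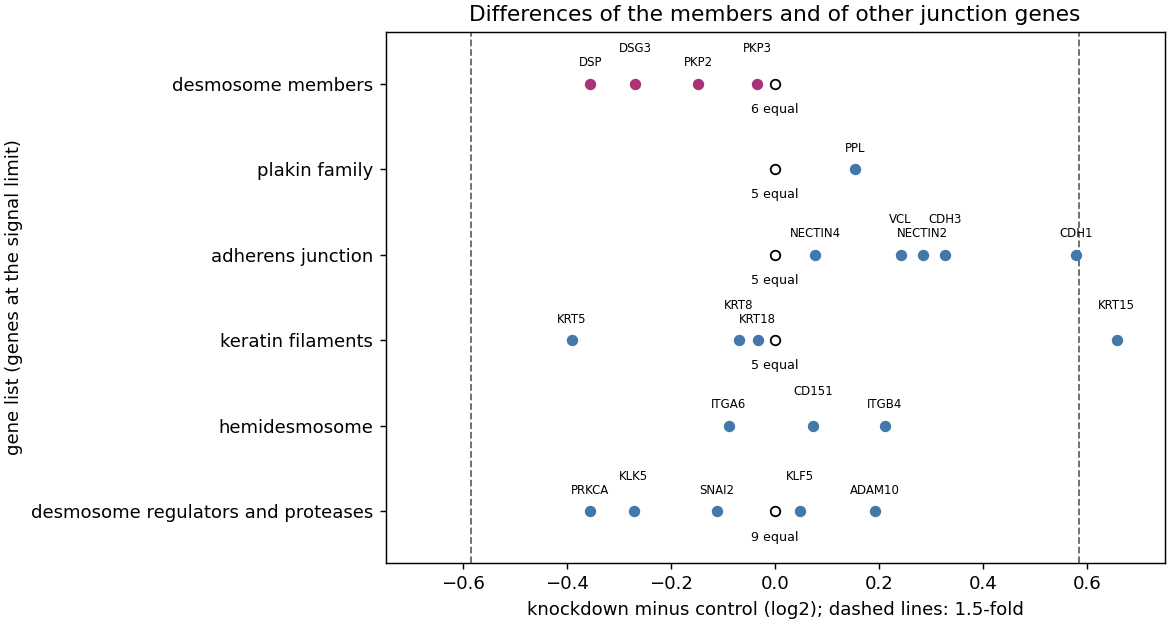
Difference, knockdown minus control on the log2 scale (horizontal axis), for genes at the signal limit in the member list and 5 other lists (vertical axis). Filled points are genes that differ, open points stand for all equal genes of a list with their number, and dashed lines mark 1.5-fold. Members that differ lie left of 0 (PKP3 at -0.034 to DSP at -0.36), adherens junction genes that differ lie right of it, and KRT15 at 0.66 is the only gene beyond 1.5-fold.

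The cells matched the label of a squamous carcinoma line in part. The squamous marker list held 7 genes with a row of their own, and 2 of the 7 are members. On both arrays KRT5, CDH1, EPCAM, SFN, PKP1 and DSG3 were above the background and KRT14 was not. CDH1, EPCAM and SFN are not particular to squamous cells. TP63 and KRT6A, also listed, had no row of their own. The simple epithelial keratins KRT8 and KRT18 were at 14.57 and 14.95 in the control, while KRT13 and KRT16 were within the background range. SFN (14-3-3 sigma) differed by -0.19. No marker of the 28 for columnar epithelium, fibroblasts, endothelium, leukocytes or cardiac muscle with a row of their own exceeded the highest background row, and all 28 were equal on both arrays, between 3.40 and 5.29. The cardiac markers were included because DSP, PKP2, DSG2 and DSC2 also build the junctions of heart muscle.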

How the data were processed

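Total RNA of KYSE150 cells was measured on 2 Affymetrix arrays, 1 for shscramble and 1 for shlncRNA625. The log2 values deposited by the authors are signal levels from RMA (background correction, quantile normalization, summary of probes), which the submitters name without a version. For the arrays, the sources used here give no genome build. The values reach 19.93, and 681 rows exceed a mean of 16, the most that a 16-bit scanner yields on this scale, for reasons not stated. The step that left 76% of the measured genes with identical values on both arrays is not stated either. Differences therefore hold on the deposited scale only.

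Rows with exactly 1 symbol in the platform annotation (23781 of 70523) were used, with symbols updated by gene ID to RefSeq GRCh38.p14 for 21497 of them, and a gene was read from its row with the highest mean. Genes at or above the median mean signal of these rows, 4.97, counted as measured. As each group held 1 array, nothing was tested, and counts are given beside the shares over all measured genes. Equal means identical as deposited. Members and lists were chosen with earlier results of these data known. All members are named, and of every other list at least the genes beyond 1.5-fold and up to 4 with the largest differences among those at the limit. Further genes are named for their role. Alternatives were median centring of each array, a second quantile normalization, removal of a loess trend (span 0.3, without robust weights), a mean over the rows of each gene, the 2-fold limit of the methods, no filter, and a filter at the 75th percentile. The code was run on a copy of the control array with known shifts added without noise. That run checks the arithmetic and not the reliability of any difference. Python 3.11.15, pandas 2.3.3, NumPy 2.4.6, statsmodels 0.14.6 and matplotlib 3.10.9 were used.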

Additional observations from a re-analysis of the deposited data

How the results depend on the processing

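The 4 lower members stayed lower after a second quantile normalization and after removal of the loess trend. The other 2 alternatives could not change this, since each member has 1 row and centring shifts every gene by the same -0.011. Over all 4, DSP ranged from -0.37 to -0.30, DSG3 from -0.28 to -0.25, PKP2 from -0.16 to -0.083 and PKP3 from -0.052 to -0.034. The 6 equal members moved off 0 by small amounts, between -0.025 and 0.038. How many members count as lower depended on such amounts, with 10 after centring each array on its median, 7 after a second quantile normalization and 6 after removal of the loess trend, against 4 as deposited. The shift was not particular to the members. In the same 3 settings the median of all measured genes was -0.0106, -0.0155 and -0.0111, against 0 as deposited. For centring the count of lower members follows from its shift. For the loess setting it follows from the subtracted trend, because the equal members start at 0. The cause in the second quantile normalization was not tested. Of the 19 other listed genes at the limit that differed, KRT18 alone changed sign, and CDH1 passed 1.5-fold at 0.62 after a second quantile normalization and, barely, at 0.59 after removal of the loess trend. No member passed 1.5-fold under any setting tried, the 2-fold limit and the other filters included. The median of the members stayed between -0.023 and 0, and their mean was -0.081, or -0.050 without DSP, a setting chosen after seeing the data like the counts of lower members. No paired analysis was possible because each group holds 1 array. Signal over background limits PKP3 most, and having 2 arrays limits the precision of every difference.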
